A study of Saccharomyces cerevisiae with 6 samples.

Results

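The genes described here encode catalytic or regulatory subunits of protein kinases and phosphatases and carry an intron in budding yeast. They were chosen by name: the phosphatase genes GLC7, PTC7 and CNB1, the cyclin-dependent kinase genes PHO85 and KIN28, and the kinase activator genes MOB1 and MOB2. Of these 7 genes, 6 had a row in the table of 253 rows and 239 genes, with 1 row each, and PTC7 was not analysed here. Splicing-sensitive 2-colour microarrays compared RNA of cells whose only PRP8 gene encodes the S2197F change with RNA of cells whose only PRP8 gene is wild type (WT). Both genotypes lack the chromosomal PRP8 gene and carry PRP8 on a HIS-marked centromeric plasmid, so the deletion and the plasmid are common to mutant and control. The cells were Saccharomyces cerevisiae in rich medium, brought to 37 °C and collected at an OD600 of about 0.7. Each of 3 pairs of independent cultures was hybridised to 2 arrays with exchanged dyes, and the authors gave 1 value per pair, so n = 3 unless stated.

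Prp8 is the large protein at the core of the spliceosome, and the series asks how changes linked in people to retinitis pigmentosa affect splicing in yeast. Protein kinases attach phosphate groups to other proteins and phosphatases remove them, and many work only with a partner subunit that activates them or directs them to a substrate. In yeast such pairs set the timing of mitotic exit, transcription, phosphate signalling and the response to calcium. Each gene has an intron, a junction and an exon feature, which the labels call pre-mRNA, mature mRNA and total mRNA. An intron feature can also bind splicing intermediates and excised introns. All values are log2 ratios of S2197F over WT, or differences of such ratios, on the assumption that the authors' log values have base 2. The fold changes rest on that assumption. They are given as mean ± SE with 95% intervals from limma, and adjusted p-values are those of limma over all features of a class.

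Among the kinase and phosphatase genes, intron signal rose in S2197F for MOB2 and passed for no other. MOB2 encodes the activator of the kinase Cbk1, which acts in cell separation and polarised growth. Its intron ratio was 1.45-fold (log2 0.53 ± 0.15, interval 0.18 to 0.89, adjusted p = 0.043). The other 5 introns ran from 0.43 for MOB1 down to -0.18 for CNB1, and none of the 5 passed. The count of 1 of 6 members stands beside 59 of 251 introns that rose in the whole table (23.5%) and 0 that fell (0%). It also stands beside 15 of 150 introns (10.0%) of genes other than ribosomal protein genes. Junction signal changed for 0 of 6 members by limma, and 0 of 248 junctions in the table were higher (0%) and 1 lower (0.403%). Exon signal also changed for 0 of 6 members and for 0 of 234 features either way (0%). With unadjusted p under 0.05 the members were still at 0 of 6 in both classes. Over all features, 1.61% of junctions were then higher and 11.7% lower, and 1.71% of exons higher and 11.1% lower.

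The MOB2 intron had log2 ratios of 0.61, 0.53 and 0.46 in replicates 1, 2 and 3. All 3 lay above 0 and close together, with an SD of 0.07, against a median SD of 0.27 over all introns. Its mean was nonetheless the 68th highest of 251, near the lowest intron ratio that passed (0.51). The call was lost without replicate 1 (adjusted p = 0.15), without replicate 2 (adjusted p = 0.20) and without replicate 3 (adjusted p = 0.077). It was also lost when p was adjusted over the 3 classes together (adjusted p = 0.097). The fits without replicate 1 and without replicate 3 gave every feature 1 common variance, so their p-values do not reflect the spread of MOB2 itself. The ratio itself stayed between 0.49 and 0.66 under every setting tried.

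**Figure D1:**
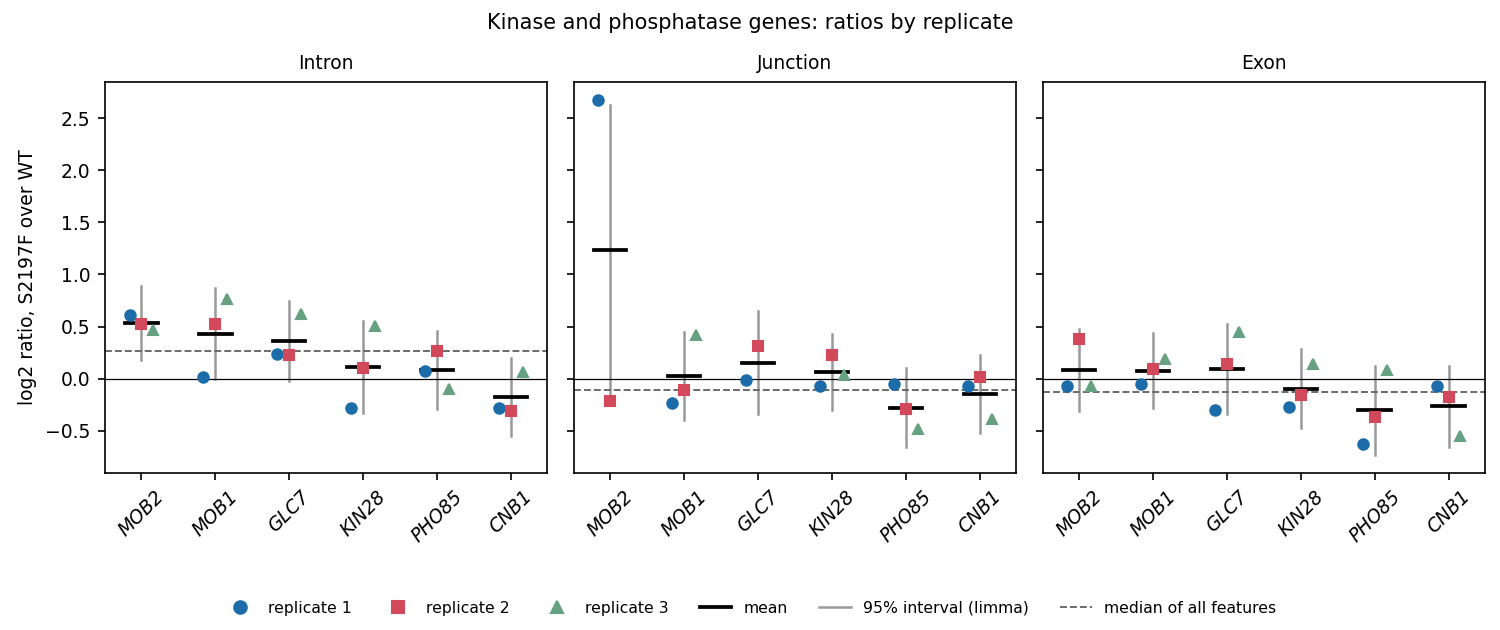
Log2 ratios of S2197F over WT (vertical axis) for the intron, junction and exon features of the 6 genes (horizontal axis). Symbols are the 3 replicates, black bars the mean, grey lines the 95% interval from limma, and the dashed line the median of all features of that class. The intron values of MOB2 lie between 0.46 and 0.61, and its junction value in replicate 1 stands alone at 2.68.

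The other feature of MOB2 that stood out was its junction, in a single replicate. The junction ratio was 2.68 in replicate 1 and -0.22 in replicate 2, and no value was given for replicate 3. The replicates thus had opposite signs, and 2.68 was the highest of the 241 junction values of replicate 1. The mean of 1.23 was the highest of 248 junctions, and the SD of 2.05 was also the largest. The feature did not pass (SE 0.59, n = 2, interval -0.17 to 2.63, adjusted p = 0.41). Without replicate 3, which holds no value for this junction, the mean stayed at 1.23 and the adjusted p became 5.87e-05. That fit gave every feature 1 common variance (its prior degrees of freedom were infinite), so its p does not reflect the gap between 2.68 and -0.22. MOB2 exon signal showed no such height, with -0.07, 0.38 and -0.07 in the 3 replicates (0.08 ± 0.17, adjusted p = 0.83).

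MOB1 encodes the activator of Dbf2 and Dbf20, the kinases of the mitotic exit network. Its intron ratios were 0.01, 0.52 and 0.76, above 0 in 3 of 3 replicates but almost at 0 in replicate 1 (0.43 ± 0.19, interval -0.003 to 0.87, adjusted p = 0.14). When every replicate was centred on the median of its exon features, MOB1 passed as well (0.57 ± 0.19, adjusted p = 0.049, 1.48-fold), and 2 of 6 members then rose, against 92 of all 251 introns. Its junction had -0.24, -0.11 and 0.42, with replicate 3 alone above 0 (0.02 ± 0.18, adjusted p = 0.94). Its exon had -0.05, 0.09 and 0.19 (0.08 ± 0.16, adjusted p = 0.83).

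GLC7 encodes the catalytic subunit of type 1 protein phosphatase, which acts in glycogen metabolism, mitosis and mRNA 3′ end processing. Its intron ratios were 0.23, 0.23 and 0.62, again above 0 in 3 of 3 replicates (0.36 ± 0.17, interval -0.02 to 0.74, 1.29-fold, adjusted p = 0.16). After centring on exon features the ratio was 0.49 and narrowly missed the threshold (adjusted p = 0.052). The GLC7 junction had -0.0082 in replicate 1 and 0.32 in replicate 2, with no value for replicate 3 (0.16 ± 0.21, n = 2, adjusted p = 0.79). The GLC7 exon spread on both sides of 0, with -0.30, 0.14 and 0.44 (0.09 ± 0.19, adjusted p = 0.83). In replicate 3, where the GLC7 intron was highest, its exon was also high, the 11th highest of 234.

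CNB1 encodes the regulatory subunit of calcineurin, the phosphatase that calcium and calmodulin activate. It had the lowest intron ratio of the 6 genes, with -0.28, -0.31 and 0.06 (-0.18 ± 0.16, interval -0.55 to 0.20, adjusted p = 0.46). Replicates 1 and 2 were below 0 and replicate 3 just above it. The mean was the 239th of 251 introns from the highest, and in replicate 2 alone it was the 248th of 251. The CNB1 exon was below 0 in 3 of 3 replicates, at -0.07, -0.18 and -0.55 (-0.27 ± 0.17, adjusted p = 0.49), as 33.3% of all exon features measured in every replicate were. Its junction had -0.07, 0.01 and -0.38 (-0.15 ± 0.16, adjusted p = 0.76).

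PHO85 encodes the cyclin-dependent kinase that, with its cyclin Pho80, keeps phosphate starvation genes off when phosphate is plentiful. Its intron had 0.08, 0.27 and -0.10, on both sides of 0 (0.08 ± 0.16, interval -0.29 to 0.45, adjusted p = 0.74). The junction was the lowest of the 6 genes and below 0 in 3 of 3 replicates, at -0.05, -0.30 and -0.49 (-0.28 ± 0.16, adjusted p = 0.51). By comparison 29.7% of junctions measured in every replicate were below 0 in all of them. The PHO85 exon was also the lowest of the 6, with -0.62, -0.37 and 0.09 (-0.30 ± 0.18, adjusted p = 0.46). Exon and junction did not move together, since replicate 1 had the lowest exon and the highest junction value, and replicate 3 the reverse.

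KIN28 encodes the cyclin-dependent kinase of the transcription factor TFIIH, which phosphorylates the tail of RNA polymerase II. Its intron ratios were -0.28, 0.10 and 0.51, the widest intron spread of the 6 genes (0.11 ± 0.19, SD 0.39, adjusted p = 0.72). Its exon was likewise lowest in replicate 1 and highest in replicate 3, with -0.28, -0.16 and 0.14 (-0.10 ± 0.16, adjusted p = 0.83). Its junction had -0.07, 0.23 and 0.03, highest in replicate 2, where it was the 29th highest of 248 (0.07 ± 0.16, interval -0.30 to 0.43, adjusted p = 0.87).

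Taken by mean intron ratio, the order was MOB2, MOB1, GLC7, KIN28, PHO85 and CNB1. Neighbours in this order were compared by their difference within each replicate. The difference was 0.10 ± 0.45 for MOB2 minus MOB1, 0.07 ± 0.26 for MOB1 minus GLC7, 0.25 ± 0.23 for GLC7 minus KIN28, 0.03 ± 0.51 for KIN28 minus PHO85 and 0.26 ± 0.38 for PHO85 minus CNB1 (SD, n = 3). Of these only GLC7 minus KIN28 was above 0 in 3 of 3 replicates and larger than its SD, at 0.51, 0.13 and 0.11. Between the ends of the order, MOB2 exceeded CNB1 by 0.89, 0.84 and 0.40 (0.71 ± 0.27, SD, n = 3). These pairs were picked from the same values that ordered them, so no test was made. With 3 replicates, the smallest two-sided p of an exact test that flips signs is 0.25.

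**Figure D2:**
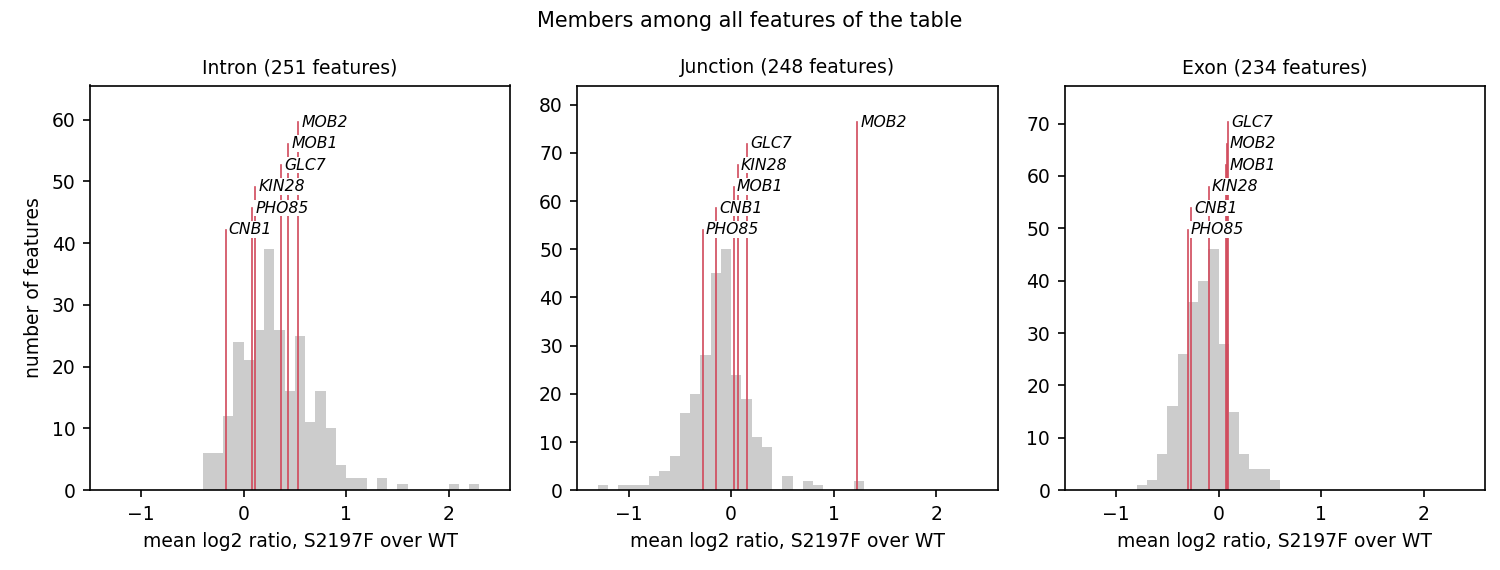
Number of features (vertical axis) by mean log2 ratio of S2197F over WT (horizontal axis) in the intron, junction and exon classes, with the 6 genes as red lines. The introns of the 6 genes span -0.18 to 0.53, with CNB1 the 239th of 251 introns from the highest. The MOB2 junction lies at the upper end of the junctions at 1.23.

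As a group the 6 introns had replicate medians of 0.04, 0.25 and 0.49 (0.26 ± 0.22, SD, n = 3). The medians of all 251 introns were 0.22, 0.29 and 0.38 (0.30 ± 0.08, SD, n = 3), and those of the 150 introns outside ribosomal protein genes -0.05, 0.18 and 0.27 (0.13 ± 0.16, SD, n = 3). The 6 introns thus lay below the whole table in replicates 1 and 2 and above it in replicate 3, and above the median of those 150, which include them, in each replicate. Of the 6, 3 were above 0 in every replicate (MOB2, MOB1 and GLC7), against 51.4% of all introns measured in every replicate. The junction medians of the members were -0.06, -0.05 and -0.18 (-0.09 ± 0.07, SD, n = 3), against -0.21, -0.08 and -0.14 for all junctions (-0.14 ± 0.07, SD, n = 3). In replicate 3 the members' junction median covers only 4 genes, since GLC7 and MOB2 had no value there. For the 147 junctions outside ribosomal protein genes the medians were -0.23, -0.0011 and 0.0072 (-0.07 ± 0.13, SD, n = 3). The members' medians lay above these in replicate 1 and below them in replicates 2 and 3. The exon medians of the 6 genes were -0.17, -0.03 and 0.11 (-0.03 ± 0.14, SD, n = 3), against -0.15, -0.07 and -0.18 for all exons (-0.13 ± 0.06, SD, n = 3). For the 135 exons outside ribosomal protein genes they were -0.14, 0.04 and -0.09 (-0.06 ± 0.09, SD, n = 3). Taken instead over the genes' means, the medians of the 6 genes were 0.24, 0.05 and -0.01 for introns, junctions and exons. Their junction median thus changes sign with the way it is formed. GLC7 and MOB2, the 2 genes with the highest junction means, enter the replicate medians only in replicates 1 and 2. None of these differences was tested.

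The replicates were not equally alike in the 3 classes, which bears on how firmly a junction or exon value can be read. Over all features, intron ratios of any pair of replicates correlated positively, at a Pearson r of 0.64 for replicates 1 and 2, 0.43 for replicates 1 and 3 and 0.41 for replicates 2 and 3. For junctions r was 0.0015, 0.23 and 0.18 for the same pairs, and for exons 0.19, 0.014 and 0.39. These are descriptions across features that share arrays. Junction values were missing for 25 of 253 rows in replicate 3 (9.88%), GLC7 and MOB2 among them, for 11 rows in replicate 1 (4.35%) and for 1 row in replicate 2 (0.395%).

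Subtracting one class from another within a gene removes any shift that an array gives to all its features. Intron minus junction passed for 0 of 6 members, against 52 of 247 features that were higher (21.1%) and 1 that was lower (0.405%). MOB1 had the highest value, with 0.25, 0.63 and 0.35, all above 0 (0.41 ± 0.28, interval -0.15 to 0.97, adjusted p = 0.31). PHO85 was next, with 0.13, 0.56 and 0.39, also all above 0 (0.36 ± 0.28, interval -0.20 to 0.92, adjusted p = 0.38). These 2 were close to the median of all features (0.39), and their 2 of the 4 members measured in every replicate stand beside 57.5% of all such features above 0 throughout. The median of the 6 members was lower, at 0.06, against 0.24 for features outside ribosomal protein genes. Over the 4 members measured in every replicate, which leaves out GLC7 and MOB2, the median was 0.20. GLC7 had 0.24 and -0.09 (0.08 ± 0.34, n = 2, adjusted p = 0.88). KIN28 had -0.21, -0.13 and 0.48 (0.05 ± 0.28, adjusted p = 0.91). CNB1 had -0.21, -0.32 and 0.44 (-0.03 ± 0.28, adjusted p = 0.94). In KIN28 and CNB1 replicate 3 alone was above 0. MOB2 had -2.07 and 0.74 (-0.66 ± 0.39, n = 2, adjusted p = 0.23), where the first value carries the high junction of replicate 1. This fit shrank variances heavily towards 1 value, with 57.2 prior degrees of freedom, so the SE of 0.39 does not reflect the SD of 1.99 between these 2 replicates.

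**Figure D3:**
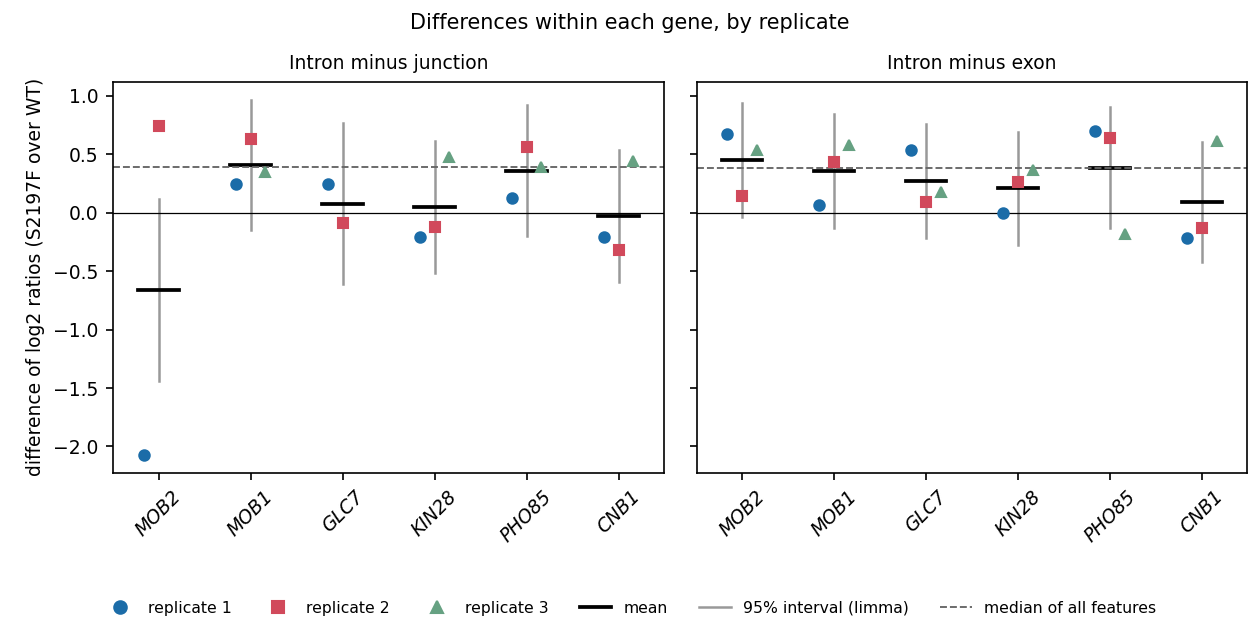
Differences of log2 ratios within each of the 6 genes (vertical axis), intron minus junction and intron minus exon, with genes along the horizontal axis. Symbols are replicates, black bars means, grey lines 95% intervals from limma and the dashed line the median of all features. MOB1 and PHO85 lie near the dashed line at 0.39 for intron minus junction, and MOB2 reaches -2.07 in replicate 1.

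Intron minus exon also passed for 0 of 6 members, where 72 of 246 features were higher (29.3%) and 0 lower (0%). The 6 means were all above 0, from 0.09 for CNB1 to 0.45 for MOB2. Their median was 0.31, against 0.38 over all features and 0.26 for those outside ribosomal protein genes. MOB2 had 0.68, 0.14 and 0.53 (0.45 ± 0.23, interval -0.04 to 0.94, adjusted p = 0.16). Its intron thus stood above its exon in every replicate, without passing. MOB1 had 0.06, 0.43 and 0.57 (adjusted p = 0.27), and GLC7 had 0.54, 0.09 and 0.18 (adjusted p = 0.39), and these were also above 0 in 3 of 3 replicates. PHO85 had 0.70, 0.64 and -0.18 (0.38 ± 0.25, adjusted p = 0.26), with replicate 3 against the other replicates. KIN28 had -0.0013, 0.26 and 0.37 (adjusted p = 0.48), and CNB1 had -0.21, -0.13 and 0.62 (adjusted p = 0.79). The share above 0 in 3 of 3 replicates was 3 of 6 members, against 54.2% of features measured in every replicate. Junction minus exon passed for 0 of 6 members and for 0 of 244 features by limma (0%). At an unadjusted p under 0.05, 5 features were higher (2.05%) and 6 lower (2.46%). MOB2 was the highest member, with 2.75 and -0.60 (1.07 ± 0.70, n = 2, adjusted p = 0.70), and the other 5 ran from -0.05 for MOB1 to 0.24 for GLC7 (n = 2).

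Genes of neighbouring roles were set beside these, from lists chosen with earlier results known. Among partners of kinase complexes, 2 of 4 listed genes had a row. ASC1, the yeast RACK1 protein, which sits on the small ribosomal subunit and binds signalling proteins, had intron ratios of 1.33, 0.73 and 1.86 and rose 2.47-fold (1.31 ± 0.22, adjusted p = 0.015). Its intron also rose relative to its junction (1.32 ± 0.29, SD 0.88, adjusted p = 0.000811) and its exon (1.57 ± 0.28, SD 0.85, adjusted p = 0.000981). Both differences were above 0 in 3 of 3 replicates, but their SDs exceeded the median SDs over all features (0.38 and 0.33). The 2 fits shrank variances towards 1 value, with 57.2 and 15.6 prior degrees of freedom. The SEs and p-values of these differences thus do not reflect the full spread between the ASC1 replicates. PCC1, a subunit of the KEOPS complex that holds the kinase Bud32, had -0.08 ± 0.16 (adjusted p = 0.76). In the cell division list 5 of 7 genes had rows, and 0 of 6 introns passed. This stands beside 23.5% of all introns and 10.0% of those outside ribosomal protein genes. The list's median was -0.0059, and its largest ratio in size was 0.15 ± 0.16 for the tubulin gene TUB1.

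In the transcription list, which takes in factors that work beside Kin28, 7 of 8 genes had rows. Of its introns 0 of 7 passed, beside the same 23.5% and 10.0%, with a median of 0.27. GCR1, an activator of glycolytic genes, had the largest ratio (0.54 ± 0.20, adjusted p = 0.088). Intron minus junction rose for 2 of these 7, beside 21.1% of all features. MAF1, the repressor of RNA polymerase III, had 0.63 and 1.97 in replicates 2 and 3 (1.30 ± 0.35, SD 0.95, n = 2, adjusted p = 0.0053), in the fit whose variances were shrunk heavily, and its intron had -0.24, 0.25 and 1.42. GCR1 was the other, at 0.83 ± 0.29 (SD 0.78, adjusted p = 0.032). It came from the same fit, so its SE and p do not reflect the full spread between its replicates. GCR1 had -0.04 in replicate 2 and so was above 0 in 2 of 3 replicates. Junction and exon features of the 3 lists passed in 0 cases, beside 0.403% of all junctions and 0% of all exons. For scale, the intron of ACT1, the actin gene used as a splicing reporter in yeast, rose 1.82-fold (0.86 ± 0.20, adjusted p = 0.024), more than the MOB2 intron in replicates 1 and 3 (0.75 and 1.34) but not in replicate 2 (0.50).

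**Figure D4:**
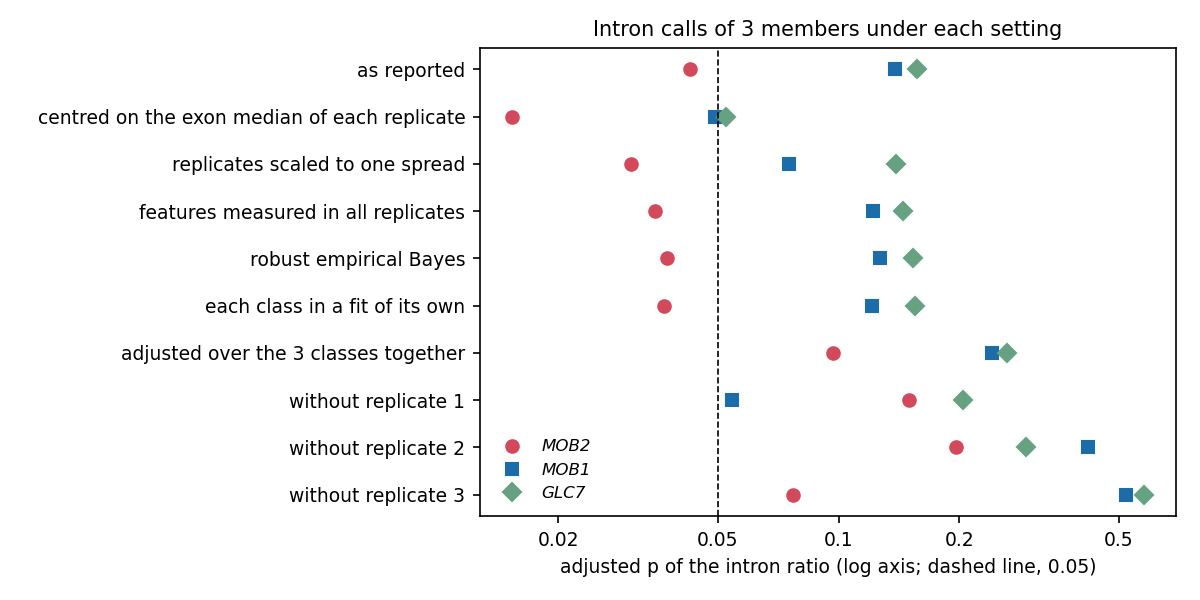
Adjusted p of the intron ratio (horizontal log axis) for MOB2, MOB1 and GLC7 under each setting of the fit (vertical axis), with 0.05 as the dashed line. MOB2 lies below 0.05 as reported (0.043) and above it without any 1 replicate, and MOB1 falls below it under 1 setting (0.049).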

How the data were processed

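Values came from the authors' deposited table of log2 ratios of S2197F over WT. Per the labels, each array was analysed with its dye exchange and 1 value given per biological replicate. The sources used here do not give the base of the logarithm, taken as 2, nor the image analysis, background correction and normalization. A second table of single-array spots carries no gene names and was not used. Rows that repeat the values of another row in a class were used once. A feature needed values in 2 or more replicates. The mean ratio was tested against 0, two-sided, by limma 3.58.1 (R 4.3.3) with empirical Bayes variances in 1 fit for the 3 classes (251 intron, 248 junction and 234 exon features) and 1 for each difference. Adjustment was by Benjamini-Hochberg within a class over all its features, at 0.05. The members and comparison lists were chosen with earlier results of these data known. All rows of the members are reported, and from the lists those past the threshold and the largest intron ratio, plus PCC1, which was added after its values were seen as the other of 2 measured kinase complex partners. The number of arrays, in 3 pairs of cultures, limits the precision. Names were matched to RefSeq R64 locus tags. No sequence was printed.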

Additional observations from a re-analysis of the deposited data

How the results depend on the processing

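Each ratio sets a mutant culture against its own wild type culture, so the test against 0 is itself paired. MOB2 kept its call for the intron when replicates were centred, scaled to one spread, limited to features in every replicate, or fitted with robust variances or by class, and lost it on adjustment over the 3 classes together, where 0 members and 7 of all introns passed. Centring on exon features gave 92 introns and 2 members, and 0 junctions in the whole table. It moved the members' junction median to 0.18 and turned the KIN28 exon to 0.035. Requiring every replicate gave a junction median of -0.061 over the 4 genes left. One fit per class gave 0 junctions, and scaling turned the MOB1 junction to -0.010. None of these turned values passed. Where a setting changed a value, the cause was not tested.

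Introns that passed in the whole table numbered 35, 2 and 47 without replicate 1, 2 and 3, and the members among them 0 each time. Junctions numbered 11, 0 and 3, and the members among them 0, 0 and 1 (MOB2). Intron minus junction gave 33, 37 and 2 features, and intron minus exon 0, 45 and 57. Prior degrees of freedom in these fits were infinite, 3.24 and infinite for the 3 classes. They were 38.5, infinite and 6.36 for intron minus junction, and 4.35, infinite and infinite for intron minus exon. The counts thus mix the replicate left out with the shrinkage of variances, and the share of each was not tested. The members' medians ran from -0.12 to 0.026 for junctions, from -0.046 to 0.33 for intron minus junction and from 0.036 to 0.27 for junction minus exon. Without replicate 1 or 2 these medians cover 4 genes, since GLC7 and MOB2 then had fewer than 2 junction values. Only the medians without replicate 3 cover all 6 genes (0.026, -0.046 and 0.27). Values of single genes that changed sign when a replicate was left out were all short of the threshold. For introns, PHO85 ran from -0.010 to 0.17 and KIN28 from -0.087 to 0.31. For junctions, KIN28 ran from -0.017 to 0.13 and MOB1 from -0.17 to 0.15. For exons, GLC7 ran from -0.081 to 0.29 and MOB2 from -0.070 to 0.16. For intron minus junction, CNB1 ran from -0.27 to 0.12 and KIN28 from -0.17 to 0.18, and for intron minus exon, CNB1 from -0.17 to 0.24. For junction minus exon, PHO85 ran from -0.25 to 0.32 and MOB1 from -0.19 to 0.022.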
